A study of Homo sapiens with 4 samples.

Results

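The heat shock chaperones described here were 10 genes given as a fixed list, which were matched by symbol to the 60564 gene identifiers of the count files. All 10 were found and all 10 were among the 22555 genes that passed the filter on low counts. They were described as 7 cytosolic members (HSPA8, HSP90AA1, HSP90AB1, HSPH1, HSPA4, DNAJA1 and DNAJB1) and 3 mitochondrial members (HSPD1, HSPE1 and HSPA9). RNA-seq was performed on Elf1, a naïve human embryonic stem cell line, as 2 libraries per condition, and both conditions used the same expansion medium. The line is routinely kept on mouse embryonic feeder cells. Per the labels, the 2-D grown cells adhered to plastic coated with Matrigel, and the methods place a feeder-free step on Matrigel before encapsulation. The 3-D grown cells had been dispersed to single cells, sealed in a self-assembling PEG-8-SH/PEG-8-Acr scaffold, and kept there for 21 days. The line is 1 isolate from 1 embryo, and no other line was measured. The libraries of a condition were labelled as biological replicates. The p-values of the fit weigh a change against the spread between replicate libraries, which is estimated partly from other genes. They cover these 4 libraries only.

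Chaperones bind proteins that are not yet folded or have lost their fold. HSP70 proteins hold and release short greasy stretches of a client as they split ATP, J-domain proteins bring the client and start the ATP step, and HSP110 proteins exchange the nucleotide. HSP90 then takes over a smaller set of nearly folded clients such as kinases and steroid receptors. In mitochondria, an HSP70 named mortalin (HSPA9) pulls imported chains through the inner membrane, and the HSP60 barrel (HSPD1) folds them in a chamber closed by a lid of HSP10 (HSPE1). Many of these genes are read at a high level in unstressed cells and rise further under heat, when heat shock factor 1 binds inverted repeats of GAA in their promoters.

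The promoters of HSPA8, HSP90AA1, HSPD1 and HSPE1 are shown first, as the 250 bases before a RefSeq start site in GRCh38.p14, 5′ to 3′ on the strand of the gene. Capitals mark heat shock element letters, meaning GAA and TTC triplets that alternate with 2 free bases between them. HSPA8 and HSP90AA1 are shown as the cytosolic members called higher in the fit below. HSPD1 and HSPE1 are shown because they lie head to head and did not move together.
HSPA8, chr11:123062137-123062386, minus strand: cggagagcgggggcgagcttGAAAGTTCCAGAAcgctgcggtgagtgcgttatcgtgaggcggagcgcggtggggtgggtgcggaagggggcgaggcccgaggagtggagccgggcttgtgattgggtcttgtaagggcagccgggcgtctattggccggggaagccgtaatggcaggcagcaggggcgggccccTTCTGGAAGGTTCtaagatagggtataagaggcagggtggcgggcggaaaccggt
HSP90AA1, chr14:102087045-102087294, minus strand: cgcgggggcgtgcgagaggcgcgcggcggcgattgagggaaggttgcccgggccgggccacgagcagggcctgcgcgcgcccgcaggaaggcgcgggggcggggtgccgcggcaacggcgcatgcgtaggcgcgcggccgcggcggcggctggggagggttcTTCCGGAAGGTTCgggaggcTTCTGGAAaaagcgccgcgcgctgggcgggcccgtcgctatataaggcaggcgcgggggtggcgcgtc
HSPD1, chr2:197499841-197500090, minus strand: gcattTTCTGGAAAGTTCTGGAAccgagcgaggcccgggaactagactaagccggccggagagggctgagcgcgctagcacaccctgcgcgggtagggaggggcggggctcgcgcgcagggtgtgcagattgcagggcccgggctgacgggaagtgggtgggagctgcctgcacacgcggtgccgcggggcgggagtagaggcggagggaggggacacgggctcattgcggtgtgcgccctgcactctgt
HSPE1, chr2:197500129-197500378, plus strand: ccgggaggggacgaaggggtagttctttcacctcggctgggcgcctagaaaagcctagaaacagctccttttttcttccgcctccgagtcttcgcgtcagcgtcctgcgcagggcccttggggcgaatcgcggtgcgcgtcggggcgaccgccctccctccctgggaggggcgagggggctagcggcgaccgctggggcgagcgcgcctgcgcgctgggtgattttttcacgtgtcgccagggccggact

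These windows differ in what they hold. The HSPA8 window had 2 runs of 3 triplets, from 230 to 218 and from 55 to 43 bases before the start. HSP90AA1 had a run of 3 triplets from 88 to 76 bases before its start and a further pair from 68 to 61. HSPD1 had a run of 4 triplets from 245 to 228 bases before its start, and the HSPE1 window had no such letters.

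Shorter stretches show the letters in the other members that hold them, with the same use of capitals. HSP90AB1 and DNAJA1 carried runs of 3 triplets, and HSPA9 and DNAJB1 carried pairs only. The HSP90AB1 runs lie 165 to 153 and 112 to 100 bases before its start site at 44247943, and the windows of its other start sites hold none. The DNAJA1 run lies 3 to 15 bases after the start, and the HSPA9 pair spans the start.
HSP90AB1, chr6:44247770-44247798, plus strand: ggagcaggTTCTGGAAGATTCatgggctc
HSP90AB1, chr6:44247823-44247851, plus strand: tgagattgTTCTGGAAGCTTCtggattct
DNAJA1, chr9:33025268-33025296, plus strand: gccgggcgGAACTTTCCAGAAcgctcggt
HSPA9, chr5:138575390-138575413, minus strand: ttggaggtTTCCAGAAgcgctgcc
DNAJB1, chr19:14518459-14518482, minus strand: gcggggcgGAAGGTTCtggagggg

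RefSeq lists 16 promoter windows for the 10 members, each running from 250 bases before to 50 bases after a start site. A run of 3 triplets stood in 5 of these windows, 1 each for HSPA8, HSP90AA1, HSP90AB1, DNAJA1 and HSPD1. Over all 35116 windows of the same length, 172 (0.490%) held such a run. The pair GAANNTTC stood in 6.77% and the pair TTCNNGAA in 7.74% of all windows, and 13.5% held either. Both strands are covered, since each pair reads the same on the other strand, and a run of triplets contains overlapping pairs. Of the members, 7 held a pair in 8 windows, and HSPE1, HSPA4 and HSPH1 held none. A match of letters describes the sequence only. HSP90AB1, DNAJA1 and HSPD1 hold a run and were not called in the fit below, while HSPA9 was called and holds a pair only. A part of these letters in the changes was not tested.

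The question put to the counts was how each chaperone differed between 3-D and 2-D grown cells. Of the 10 genes, 4 changed: HSPA8, HSP90AA1 and HSPA9 were modestly higher in 3-D grown cells and HSPE1 was clearly lower. A gene is called when its adjusted p (edgeR's quasi-likelihood test, Benjamini-Hochberg over all genes tested) is below 0.05. That made 4 of 10 members called, against 7.9% of all genes tested. A fit that leaves out 1 library has a condition with a single library, whose spread is assumed to be that of the other condition. By direction, 3 members were called higher, against 4.54% of all genes, and 1 was called lower, against 3.36%. Values below are CPM, the count of a gene relative to the TMM-scaled size of its library, and fold changes are log2 of 3-D over 2-D.

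The libraries held 18276147 to 33833778 counts and the 3-D libraries were the shallower ones, yet the members had between 1071 and 90791 counts each, far above the filter on low counts. Over all genes, 1024 were called higher and 758 lower. With scaling by library size alone the split was 514 higher and 1872 lower, and the median of all genes moved by -0.06 on the log2 scale. Transcripts encoded by the mitochondrial genome took 5.10 to 5.30% of counts in 2-D and at least 8.33% in 3-D libraries, and their part in the chaperone values was tested only through the scaling alternatives. Pluripotency markers fitted the label of stem cells: all 8 were expressed, LIN28A for instance at 1718 to 1808 CPM in every library. Of these, DNMT3B (0.17) and PODXL (0.13) were called higher on the log2 scale. Of the 8 naïve state markers, KLF4, KLF5, TFCP2L1, DPPA3, DNMT3L and SUSD2 were expressed at 5.73 to 57.1 CPM. KLF17 and DPPA5 lay at or below 1.07 CPM in every library. Of 7 tested, 4 had a higher and 3 a lower fitted level in 3-D, and only KLF5 was called, higher (0.26). Of the 8 listed fibroblast markers, mainly COL1A1, COL1A2 and THY1 were expressed. The 8 summed to 524 to 532 CPM in 2-D and 542 to 591 CPM in 3-D libraries. COL1A2 made 324 and 316 CPM in 2-D and 300.1 and 324 CPM in 3-D libraries, which overlapped. Of 6 tested, COL1A1, COL3A1 and THY1 were called higher. COL1A2, PDGFRA (0.84 to 1.56 CPM) and TWIST2 (2.81 to 4.06 CPM) were not called, and DCN and LUM lay below 1 CPM. Whether fibroblasts were present, and their part in the chaperone values, was not tested. In bulk RNA, fewer cells of a type and less RNA per cell cannot be told apart.

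**Figure D1:**
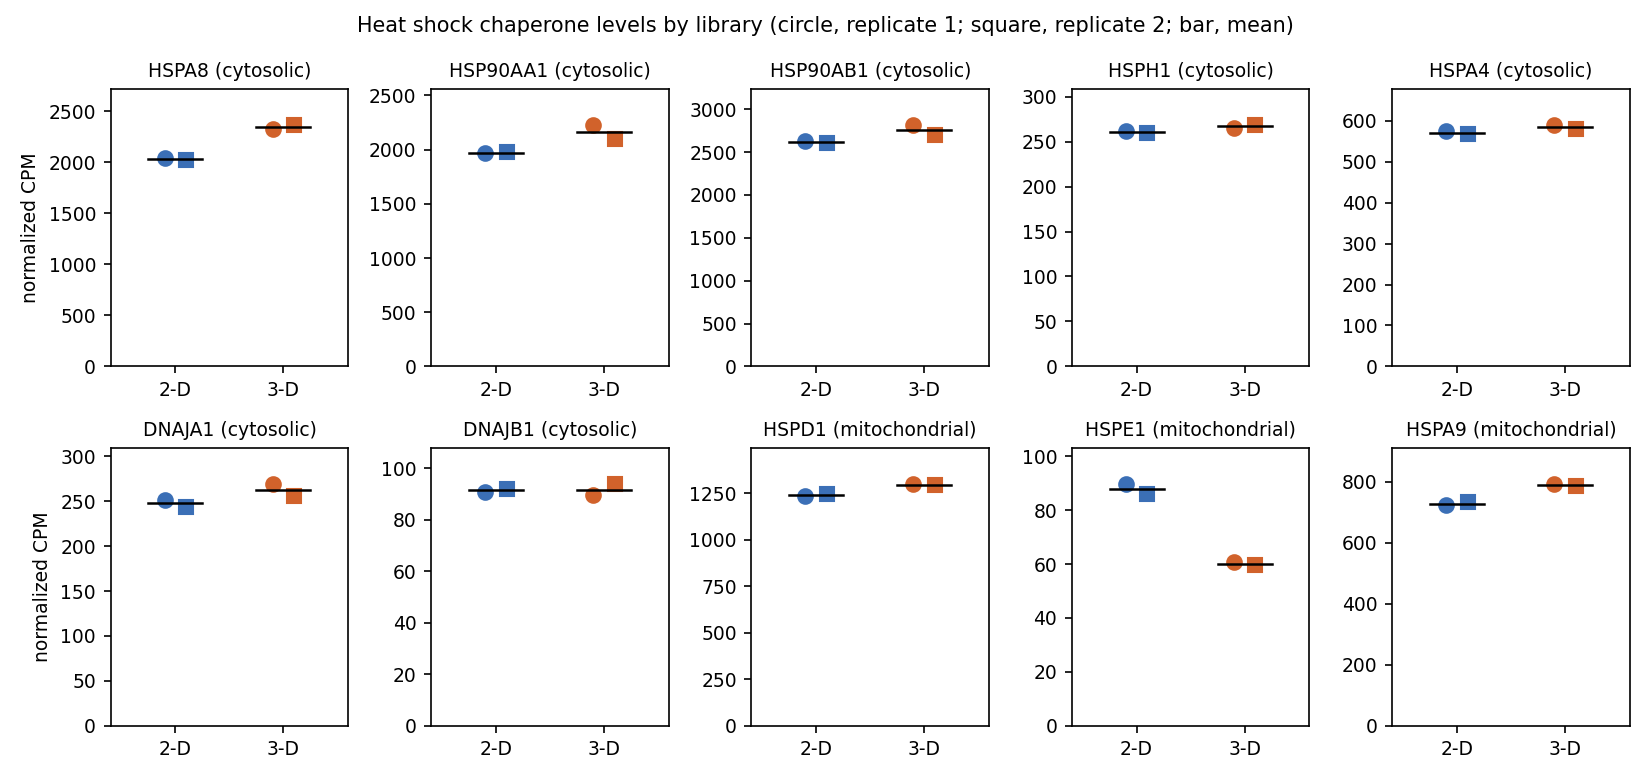
Normalized CPM of the 10 chaperones (vertical axes, each from 0) in the 2-D and 3-D libraries, with circles for replicate 1, squares for replicate 2 and a bar at the mean. HSPE1 is the only panel in which both 3-D libraries lie below both 2-D libraries, and the DNAJB1 libraries overlap.

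Among the cytosolic members, HSPA8 moved most. HSPA8, the HSP70 made in all cells (chr11:123057489-123063230), was at 2046 and 2027 CPM in 2-D and at 2329 and 2363 CPM in 3-D libraries. Both 3-D libraries lay above both 2-D libraries, and the gap between conditions was far wider than the gap within either. The log2 fold change was 0.20 (SE 0.03, adjusted p = 0.00104), a rise of 15.2%.

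The HSP90 genes lay close to it in level. HSP90AA1, the heat-inducible HSP90 isoform (chr14:102080742-102139699), was at 1971 and 1975 CPM in 2-D and at 2226 and 2094 CPM in 3-D libraries. The 3-D libraries were both higher but differed more from each other than the 2-D libraries did. HSP90AA1 rose by a log2 fold change of 0.13 (SE 0.03, adjusted p = 0.0324), and the change was 0.13 without either 2-D library, where the call was lost (adjusted p = 0.0755 without replicate 1 and 0.0866 without replicate 2). It was 0.07 with scaling by library size alone (adjusted p = 0.238) and 0.09 without 3-D replicate 1 (adjusted p = 0.0225).

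HSP90AB1, the constitutive isoform (chr6:44246166-44253888), was at 2631 and 2612 CPM in 2-D and at 2814 and 2698 CPM in 3-D libraries. Its libraries did not overlap, but the log2 fold change of 0.07 (SE 0.03) did not pass the test (adjusted p = 0.194). It was 0.04 without 3-D replicate 1 (adjusted p = 0.372) and 0.10 without 3-D replicate 2, where it was called (adjusted p = 0.00300), and 0.0081 with scaling by library size alone.

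The HSP110 proteins, HSPH1 and HSPA4, act as nucleotide exchange factors for HSP70. HSPH1 (chr13:31134973-31162388) was at 261 and 260.1 CPM in 2-D and at 265 and 268 CPM in 3-D libraries. HSPA4 (chr5:133052013-133106449) was at 575 and 567 CPM in 2-D and at 589 and 579 CPM in 3-D libraries. The 3-D libraries of both genes lay just above the 2-D libraries, with log2 fold changes of 0.03 for each and adjusted p of 0.589 and 0.597. With scaling by library size alone both had the opposite sign.

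The J-domain members deliver clients to HSP70. DNAJA1 (chr9:33025273-33039907) was at 252 and 244 CPM in 2-D and at 269 and 256 CPM in 3-D libraries. The groups did not overlap, and the log2 fold change was 0.08 (SE 0.03, adjusted p = 0.185). It was 0.05 without 3-D replicate 1 (adjusted p = 0.368), 0.12 without 3-D replicate 2, where it was called (adjusted p = 0.00303), and 0.02 with scaling by library size alone. DNAJB1, the J-domain partner that rises strongly under heat (chr19:14514769-14560391), was at 91.0 and 92.1 CPM in 2-D and at 89.8 and 93.8 CPM in 3-D libraries. It was the member whose libraries overlapped, with a log2 fold change of 0.0038 (SE 0.03, adjusted p = 0.969) whose sign turned under 8 of 18 alternatives.

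The mitochondrial members did not move together. HSPA9 (chr5:138553756-138575675) was at 722 and 734 CPM in 2-D and at 791 and 785 CPM in 3-D libraries. Both 3-D libraries were higher, with a log2 fold change of 0.11 (SE 0.03, adjusted p = 0.0328). The change was 0.10 without 2-D replicate 1 (adjusted p = 0.310) and 0.13 without 2-D replicate 2 (adjusted p = 0.168), and the call was lost in both. It was also lost with scaling by library size alone, at 0.05 (adjusted p = 0.346), and without mitochondrially encoded genes in the library size, at 0.10 (adjusted p = 0.0611).

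HSPD1, the HSP60 subunit (chr2:197486584-197516737), was at 1235 and 1244 CPM in 2-D and at 1297 and 1293 CPM in 3-D libraries. The 3-D libraries were higher without overlap, and the log2 fold change of 0.06 (SE 0.03) did not pass the test (adjusted p = 0.229). With scaling by library size alone it was -0.00082.

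HSPE1, the HSP10 lid (chr2:197500140-197503449), went the other way. It was at 89.6 and 85.8 CPM in 2-D and at 60.6 and 59.6 CPM in 3-D libraries, from 3090, 2650, 1248 and 1071 counts. The gap between conditions was far wider than that between the libraries of either. HSPE1 fell by 0.54 on the log2 scale (SE 0.04, adjusted p = 5.14e-06), so its level fell by 31.4%. It stood at rank 20 of 22555 genes by p and at rank 277 of the 1782 called genes by size of change. HSPE1 was called lower under each of 18 alternatives, with log2 fold changes of -0.61 to -0.45, and HSPA8 was called higher under each of them.

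Counted over the groups, 7 of 7 cytosolic members had a higher mean in 3-D and 2 were called. Their median log2 fold change was 0.07, against -0.00013 over all genes tested. Of the 3 mitochondrial members 1 was called higher and 1 lower, with a median of 0.06. With scaling by library size alone, 4 of 7 cytosolic members were higher, and the medians were 0.0081 for the cytosolic and -0.00082 for the mitochondrial members, against -0.06 over all genes. The libraries of the conditions did not overlap for 9 of 10 members, but the same held for 50.5% of all genes tested, and 7 members had an unadjusted p below 0.05, as did 21.3% of all genes. These counts describe a list whose genes are few and are not replicates of each other. The list was chosen with earlier results of these data known.

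**Figure D2:**
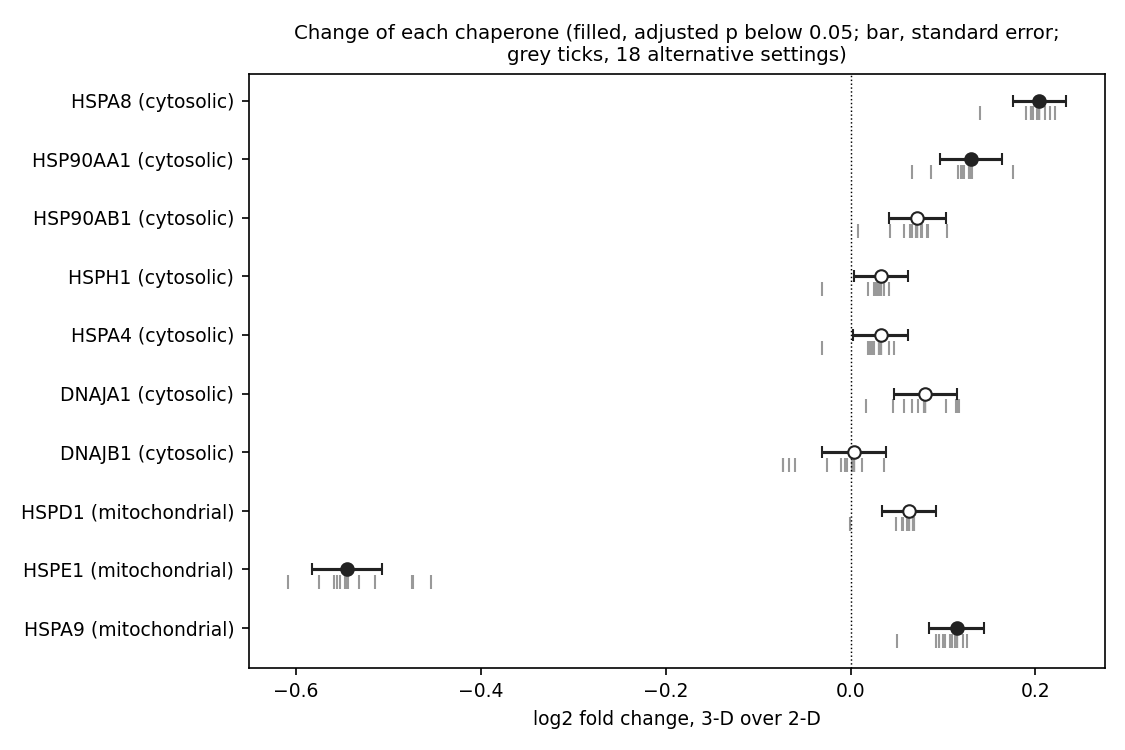
Log2 fold change of 3-D over 2-D (horizontal axis) for each chaperone, with its standard error as a bar, filled where the adjusted p was below 0.05, and with grey ticks for the 18 alternatives. HSPE1 stands alone on the left at -0.54, while the others lie between 0.0038 and 0.20.

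HSPE1 and HSPD1 face away from each other on chromosome 2. The start sites of their canonical transcripts are 539 bases apart, and a further RefSeq start site of HSPD1 lies 105 bases from that of HSPE1, with 204 bases common to the windows of both genes on opposite strands. The run of 4 triplets printed above lies 311 to 294 bases before the HSPE1 start. It falls between the start sites of the canonical transcripts but outside the window read for HSPE1. The map of their start region shows this order. The ratio of HSPD1 to HSPE1 counts, which does not depend on scaling, was 13.8 and 14.5 in 2-D and 21.4 and 21.7 in 3-D libraries. The ratio was higher in both 3-D libraries, by 0.61 on the log2 scale, and the exact permutation test gave its smallest possible two-sided p with 2 libraries against 2 (p = 0.333).

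**Figure D3:**
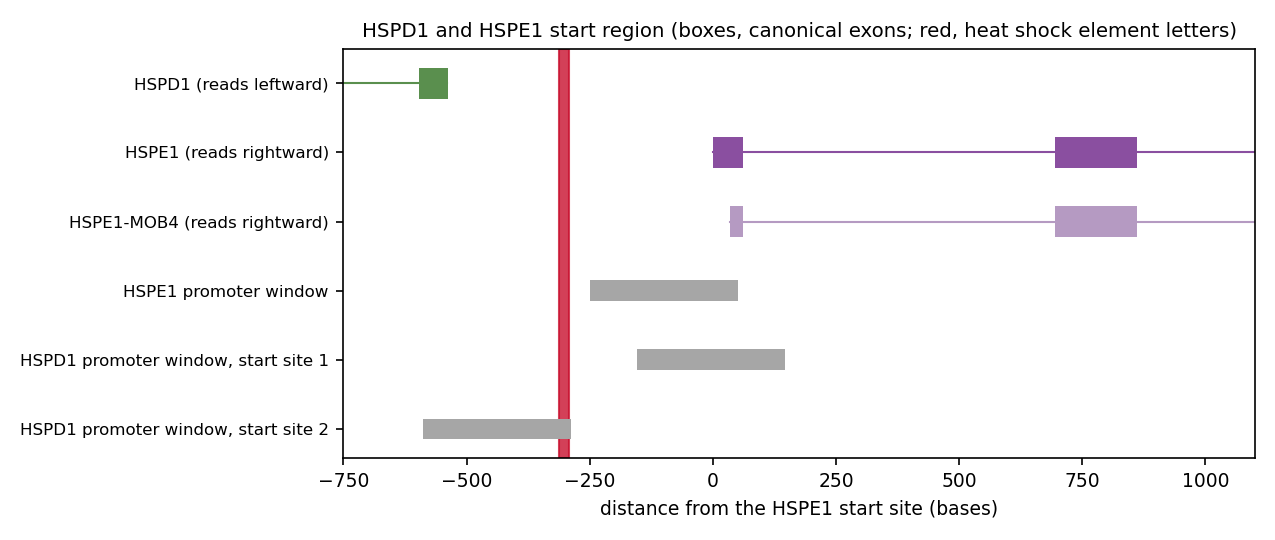
Start region of HSPD1 and HSPE1 by distance from the HSPE1 start site in bases (horizontal axis), with canonical exons as boxes, RefSeq promoter windows as grey bars and the heat shock element letters in red. The letters lie 311 to 294 bases before the HSPE1 start, inside the HSPD1 window of start site 2 and outside that of HSPE1.

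HSPE1 was also the member whose counts had most to lose or gain from neighbours and copies. Its canonical transcript is short (557 bases), and 192 of these bases (34.5%) also belong to the read-through gene HSPE1-MOB4, which was listed at 0 counts in every library. How reads on shared bases were assigned, and whether strand was used, is not given in the sources used here. MOB4, the gene downstream, was at 39.4 and 43.2 CPM in 2-D and at 37.0 and 38.6 CPM in 3-D libraries, with an adjusted p of 0.250. HSPE1 shares 135 exon bases with HSPD1 on the other strand, none of them in the canonical transcripts.

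Processed pseudogenes of the members, which can draw reads from their parents, were 81 in number, of which 59 had a count and 20 were tested. None was called by edgeR's quasi-likelihood test, with 1 at an unadjusted p below 0.05. Summed pseudogene counts came to 10.6 and 11.9% of those of HSPE1 in 2-D and to 19.5 and 15.9% in 3-D libraries. They came to less than 2% of those of any other member. HSPE1P2, the pseudogene of HSPE1 with most counts, was at 4.84 and 5.70 CPM in 2-D and at 7.09 and 5.73 CPM in 3-D libraries, with an adjusted p of 0.270. With pseudogene counts added to both genes, the ratio of HSPD1 to HSPE1 was 12.7 and 13.2 in 2-D and 18.2 and 19.0 in 3-D libraries, so the gap remained. The top pseudogene of HSP90AB1, HSP90AB3P, was at 29.97 and 26.1 CPM in 2-D and at 24.96 and 17.3 CPM in 3-D libraries (adjusted p = 0.0765). The others with most counts were HSP90AA2P at 31.3 to 39.6 CPM and HSPD1P1 at 13.5 to 15.7 CPM, with HSPA8P15, DNAJA1P3, HSPA9P1 and DNAJB1P2 below 1.6 CPM. When the canonical transcripts were aligned to the genome, no member had a second copy that covered at least 80% of it at 98% identity. Below that cutoff, HSPE1 aligned at 10 other places, the most of any member, its closest long match being at 96.4% identity. HSPD1 aligned at 2 (97.4%), HSP90AA1 at 4 (96.7%) and HSP90AB1 at 3 (96.3%). How reads were shared with such places was not tested.

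With offsets for the exon-union length (1823 bases for HSPE1) and GC content of genes in the fit, HSPE1 stayed lower, at -0.47 on the log2 scale (adjusted p = 9.17e-05). With the longest transcript (700 bases) in place of the exon union, the change was -0.45 (adjusted p = 1.02e-04). The genes whose levels ran most like HSPE1 over the 4 libraries, among 6104 genes with at least 32 CPM on average, were H4C2, UQCRQ and RPS21. Likeness was measured as the root mean square difference of centred log2 CPM, which was 0.0264 for H4C2, 0.0327 for UQCRQ and 0.0442 for RPS21. H4C2 encodes a histone, UQCRQ a subunit of respiratory complex III and RPS21 a ribosomal protein. Their log2 fold changes were -0.58, -0.49 and -0.55, and their canonical transcripts are 388, 1573 and 358 bases long.

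Other overlaps touched members less. TECR shares 525 bases with the exons of DNAJB1 on the opposite strand and rose by 0.30 on the log2 scale (38.5 and 39.2 CPM in 2-D, 47.4 and 48.6 CPM in 3-D, adjusted p = 0.00271). WDR20 shares 197 bases with HSP90AA1, and ENSG00000288061 shares 555 with HSPA8, both on the opposite strand and neither called. Small nucleolar RNA genes lie in HSPA8 (SNORD14C, SNORD14D and SNORD14E) and in HSPA9 (SNORD63 and SNORD63B), and MIR639 in DNAJB1. These small RNA genes were below 3.5 CPM, and none of the shared bases outside HSPE1 lay in a canonical transcript.

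Levels between genes were compared per kilobase of exon (RPKM over the union of exons). HSP90AB1 was the most abundant member, at 880 ± 4.63 RPKM in 2-D and 925 ± 27.5 RPKM in 3-D (SD, n = 2). HSPA8 followed at 420.0 ± 2.78 and 484 ± 4.97 RPKM, and HSP90AA1 at 387 ± 0.561 and 424 ± 18.3 RPKM. These 3 stood at ranks 28, 55 and 62 of 22467 genes in 2-D.

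Below them came HSPD1 at 162 and 170 RPKM in 2-D and 3-D, HSPA4 at 113 and 115, DNAJA1 at 92.9 and 98.3, and HSPA9 at 74.4 and 80.6. HSPE1 was at 48.1 ± 1.44 RPKM in 2-D and 33.0 ± 0.379 RPKM in 3-D, and its rank among all genes went from 818 to 1255. HSPH1 at 31.1 and 31.8 RPKM and DNAJB1 at 11.2 in each condition closed the order. The order was the same in both conditions, and the libraries of no neighbours in it overlapped. With the length of the canonical transcript in place of the exon union, HSPE1 stood higher, at 157 RPKM in 2-D and 108 in 3-D, and so fell from the 6th to the 8th place of the 10.

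Summed over the 10 genes, the chaperones took 1.01% of all counts in both 2-D libraries and 1.04 and 1.03% in 3-D libraries. Both 3-D libraries were higher, which is the most that 2 against 2 libraries can show (exact permutation, two-sided p = 0.333). The cytosolic members made 0.798 and 0.797% in 2-D and 0.835 and 0.821% in 3-D libraries. The mitochondrial members made 0.209 and 0.212% in 2-D and 0.209 and 0.210% in 3-D libraries, which overlapped. With the mitochondrially encoded transcripts left out of the totals, the mitochondrial members made 0.220 and 0.223% in 2-D and 0.229% in each 3-D library, which no longer overlapped.

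Ratios within a library compared chaperones that work as partners or belong to the same family, with HSPA9 and HSPA8 in different compartments. HSP90AA1 over HSP90AB1 was 0.749 and 0.756 in 2-D and 0.791 and 0.776 in 3-D libraries, so the inducible isoform gained slightly in both. HSPA9 over HSPA8 was 0.353 and 0.362 in 2-D and 0.340 and 0.332 in 3-D libraries, lower in both. HSPH1 over HSPA4 was 0.455 and 0.459 in 2-D and 0.451 and 0.463 in 3-D libraries and overlapped, as did DNAJB1 over DNAJA1 at 0.361 and 0.377 in 2-D and 0.334 and 0.366 in 3-D libraries. Of the 5 ratios, 3 did not overlap between conditions, each at the smallest possible exact permutation p of 0.333.

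**Figure D4:**
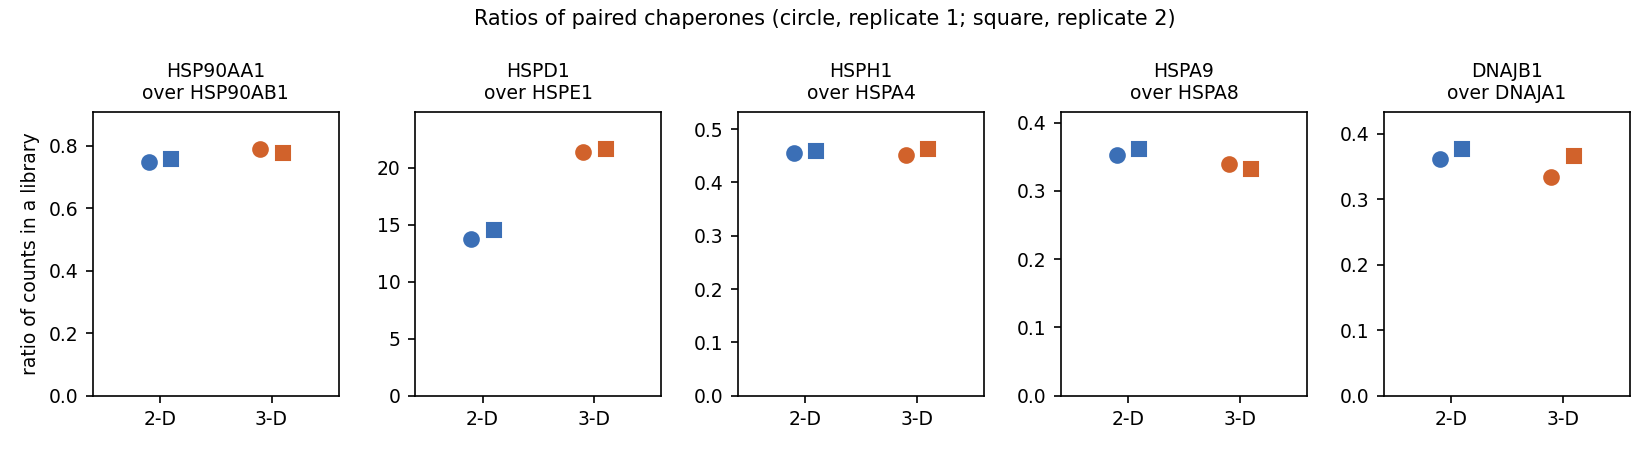
Ratio of the counts of paired chaperones in each library (vertical axes, each from 0), with circles for replicate 1 and squares for replicate 2. HSPD1 over HSPE1 goes from 13.8 and 14.5 in 2-D to 21.4 and 21.7 in 3-D libraries, while the other ratios move by less than 0.1 on the log2 scale.

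The rest of the chaperone system was read from 10 lists of 85 distinct genes, of which 74 were tested. Of these, 11 were called higher and 3 lower, so 18.9% were called against 7.9% of all genes tested. Their median log2 fold change was 0.04. With scaling by library size alone the balance turned, to 6 called higher and 14 lower with a median of -0.03. All genes turned likewise, with 2.28% called higher, 8.3% lower and a median of -0.06. Under that scaling 27.0% of the list genes tested were called, against 10.6% of all genes. Of the 11 genes called higher and 3 called lower at first, none changed sign under any of the 18 alternatives. The lists were chosen with earlier results of these data known, so these shares describe them and were not tested as a set.

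HSP90 and HSP70 co-chaperones held most of these calls, with 6 of 16 tested genes called higher and 1 lower, and a median of 0.07. With scaling by library size alone, 4 were called higher and 4 lower. That scaling called 2.28% of all genes higher and 8.3% lower. SGTA, which handles membrane proteins on their way to the ER, had the largest change, at 71.2 and 68.2 CPM in 2-D and 81.4 and 91.4 CPM in 3-D libraries (log2 fold change 0.31, adjusted p = 0.00224). CDC37, which brings kinases to HSP90, rose by 0.22 (132 and 125 CPM in 2-D, 146 and 154 CPM in 3-D, adjusted p = 0.00334). PPP5C, a phosphatase bound to HSP90, also rose by 0.22 (adjusted p = 0.00177), and ST13, which steadies HSP70 on its client, by 0.19 (adjusted p = 0.00167). These 4 genes were picked by size of change. Their libraries did not overlap between conditions, as held for 50.5% of all genes tested. All 4 were called under each of the 18 alternatives. The co-chaperones called higher but not named were called under 15 and 13 of them. The call in the lower direction fell to UNC45A, a chaperone for myosin, at -0.16 (adjusted p = 0.0365). That call held under 10 of 18 alternatives and was lost when any 1 library was left out, and the gene was named after its value was seen.

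Among the further J-domain proteins listed, 2 of 11 tested were called, both higher: DNAJC8 at 0.22 (adjusted p = 0.00488) and DNAJC2, which works at the ribosome, at 0.16 (adjusted p = 0.0200). DNAJC8 was called under each of the 18 alternatives and DNAJC2 under 13, not without 2-D replicate 1 or 3-D replicate 1. In the further cytosolic HSP70 family 0 of 5 tested were called by edgeR's quasi-likelihood test, with 1 at an unadjusted p below 0.05 (21.3% of all genes were), 0 called by limma and 0 of 4 with an adjusted p by DESeq2. Of 7 nucleotide exchange factors 0 were called, with 4 at an unadjusted p below 0.05. For these limma called 0, DESeq2 0 of 6 and edgeR's likelihood ratio test 1. Of 5 small heat shock proteins 0 were called, with 1 at an unadjusted p below 0.05, and limma called 0 and DESeq2 0 of 2. HSPA1A and HSPA1B, the HSP70 genes that respond most to heat, were at 0 to 2 counts, but both have 9 near-identical copies elsewhere in the genome file. HSPA1L, at 0 counts, has 4 such copies and BAG6 has 6, so the values of these genes were not read as expression. BAG6 is still among the 7 exchange factors, the 4 of them at an unadjusted p below 0.05, and the 74 genes tested.

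In mitochondria, 1 of 8 further chaperones and partners was called: TRAP1, the HSP90 of mitochondria, was at 127 and 123 CPM in 2-D and at 140.0 and 142 CPM in 3-D libraries (log2 fold change 0.17, adjusted p = 0.00412), and it was called under 17 of 18 alternatives, not without 2-D replicate 2 (adjusted p = 0.0828). Among 7 mitochondrial proteases SPG7 was called lower at -0.11 (adjusted p = 0.0402), a call that held under 12 of 18 alternatives and was lost without either 2-D library, with the likelihood ratio test, with DESeq2 and with limma.

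Of 3 tested genes in the list of heat shock factors, HSBP1, whose product binds heat shock factor 1, was called lower. HSBP1 was at 106 and 108 CPM in 2-D and at 92.5 and 87.4 CPM in 3-D libraries (log2 fold change -0.25, adjusted p = 0.00100) and was called under each of the 18 alternatives. HSF1 itself was at 49.2 and 47.6 CPM in 2-D and at 51.7 and 58.6 CPM in 3-D libraries, which did not pass the test (adjusted p = 0.0665). Of 11 tested genes in the list of other heat-inducible genes, SERPINH1, the collagen chaperone, was called higher at 0.12 (adjusted p = 0.0404), but under only 8 of 18 alternatives. It was lost without either 2-D library and was 0.05 with scaling by library size alone (adjusted p = 0.352). Among 7 ER counterparts, HYOU1, the HSP110 of the ER, was called higher at 0.15 (adjusted p = 0.00986), and under 12 of 18 alternatives. It was not called without 2-D replicate 2 or with scaling by library size alone, where it was 0.08 (adjusted p = 0.110).

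**Figure D5:**
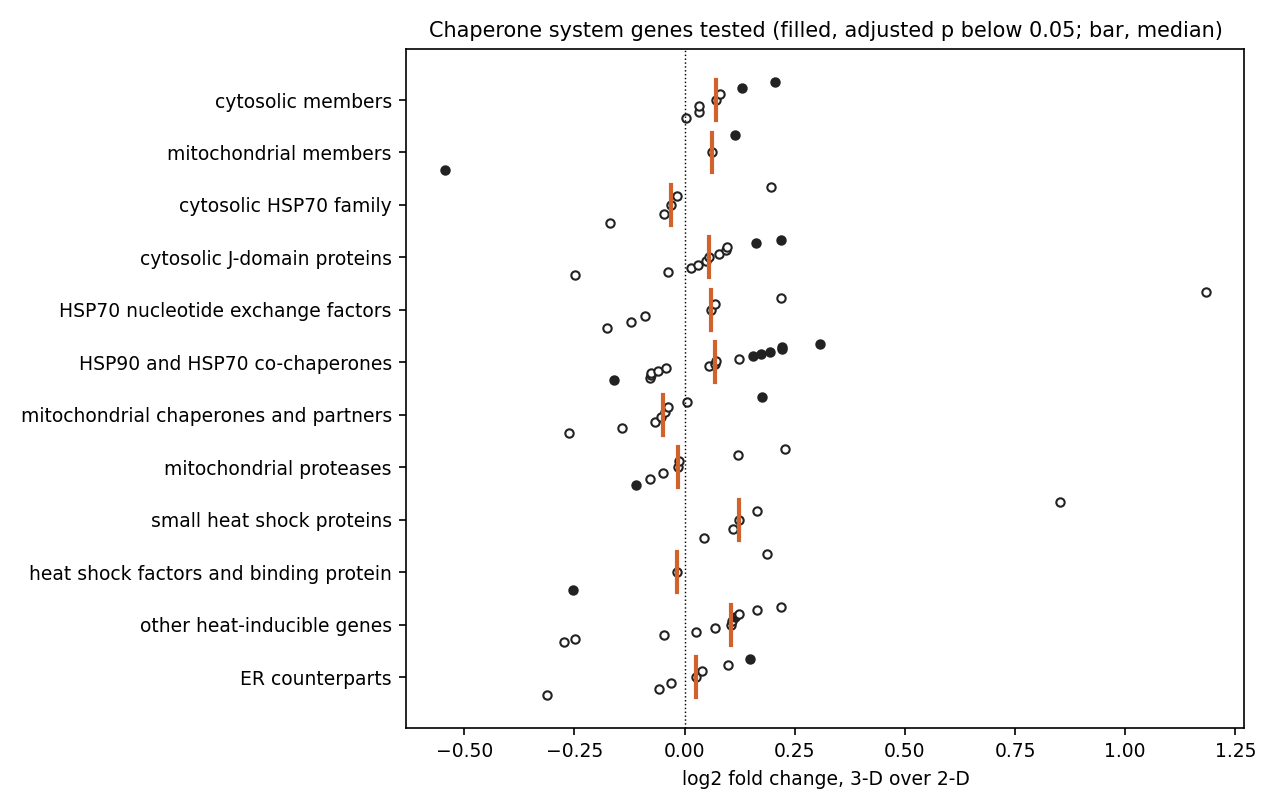
Log2 fold change of 3-D over 2-D (horizontal axis) of every tested gene of the 10 fixed lists and of the members, filled where the adjusted p was below 0.05, with a bar at the median of each list. Filled points are most frequent among HSP90 and HSP70 co-chaperones, with 7 of 16, and the 2 open points beyond 0.8 are BAG6 and HSPB6. BAG6 has near-identical copies elsewhere in the genome file, and its value was not read as expression.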

How the data were processed

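RNA-seq libraries were depleted of ribosomal RNA. Per the labels and methods, the authors trimmed paired reads with Trim Galore 0.6.3, mapped them to hg38 with HISAT2 2.1.0 and assigned them to GENCODE release 30 genes with featureCounts 1.6.4. The deposited counts are raw whole numbers per gene and library, without pooling. The deposited normalized signal is the count over 1 DESeq2 size factor per library and served limma-trend only. The columns of the authors' own comparison (mean, fold change, standard error, Wald statistic, p and adjusted p) were not used.

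Identifiers were named with GENCODE release 44, which gave a symbol to 60295 of them. Counts were fitted with edgeR 4.0.16 (filterByExpr, TMM, quasi-likelihood test, condition alone) and adjusted by Benjamini-Hochberg over all genes tested. Standard errors were derived from the log2 fold change and its F statistic (change divided by √F). Scripts were tested on simulated data. Replicates of a condition differed by more than sampling noise (chi-square over degrees of freedom 2.27 in 2-D and 3.92 in 3-D), and the common biological coefficient of variation was 5.10%. Permutation tests were exact and two-sided. Promoters came from RefSeq (GRCh38.p14), and transcripts were aligned with minimap2 2.31. The alternatives were DESeq2 1.42.0, limma 3.58.1, other tests, scalings, filters and offsets, a replicate block, and leaving out each library.

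The members and the gene lists were chosen with earlier results of these data known. The text names the members, up to 4 called genes per list by largest absolute change, genes overlapping member exons, the pseudogene of each member with most counts, and the 3 genes most like the member with the largest called change. HSPB11 matched no symbol. Protein sequences were not analysed here.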

Additional observations from a re-analysis of the deposited data

How the results depend on the processing

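HSPA8 and HSPE1 were called under all 18 alternatives. The number of members called, 4 in the report, was 2 (HSPA8 and HSPE1) with edgeR's likelihood ratio test, with scaling by library size alone, and with either offset for length and GC content, and ran from 2 to 6 when 1 library was left out (2 without 2-D replicate 1 or without 2-D replicate 2, 6 without 3-D replicate 2). The genes called, 1782 in the report, were 1139 with the likelihood ratio test and 795 with DESeq2, and 974 to 2643 when 1 library was left out. The offsets from the longest transcript and the crossed block were chosen after seeing the data.

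The median log2 fold change of the cytosolic members was 0.0081 with scaling by library size alone and 0.043 to 0.104 when 1 library was left out. That of the mitochondrial members was -0.00082 with library size alone, 0.049 without mitochondrially encoded genes in the library size, 0.056 with at least 10 counts required in every library, and 0.057 to 0.069 when 1 library was left out. With library size alone HSPH1 (-0.031), HSPA4 (-0.031), HSPD1 (-0.00082) and DNAJB1 (-0.060) turned negative. DNAJB1 was also negative without mitochondrially encoded genes (-0.011), with at least 10 counts (-0.0039), with length and GC offsets (-0.073, and -0.073 with the replicate block) and with longest transcript offsets (-0.067), and ran from -0.025 to 0.036 when 1 library was left out (-0.0056 without 2-D replicate 1, -0.025 without 3-D replicate 2). Without mitochondrially encoded genes in the totals, the share of counts differed by 0.092 for all members, 0.103 for cytosolic and 0.046 for mitochondrial members on the log2 scale. The HSPD1 to HSPE1 ratio differed by 0.52 with pseudogenes added. The cause of these differences was not tested.

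Libraries with the same replicate number did not deviate together (correlation -0.18 over 6103 genes), so the numbers were not read as pairs. A replicate block called 2167 genes and the same number of members (4), 6 members together with length and GC offsets, and a crossed block called 2212 genes and 4 members. Having 2 libraries per condition limits every test here, and the calls of HSP90AA1 (kept in 12 of 18 alternatives), HSPA9 (11), HSP90AB1 (gained in 3) and DNAJA1 (2) depended on the setting.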
